A study of Homo sapiens with 12 samples.

Results

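The unfolded protein response of the endoplasmic reticulum (ER) was examined through 10 genes picked by symbol, ERN1, ATF6, EIF2AK3, XBP1, HSPA5, HSP90B1, CALR, DNAJB9, SDF2L1 and HERPUD1, out of the 44659 genes of a table of read counts. Each of the 10 symbols named 1 row, none had a further copy in the table, and all 10 passed the filter on low counts in both comparisons (lowest count in any library 307, for DNAJB9). RNA-seq was performed on A375, a line of human melanoma cells with mutated BRAF, in 4 groups of 3 libraries. In the first experiment cells were cultured for 24 h with MAPK inhibitors (MAPKi, 500 nM of the BRAF inhibitor vemurafenib and 500 nM of the MEK inhibitor cobimetinib) or with DMSO. In the second, cells were washed and cultured for 24 h in medium without glutamine (Gln-depleted) or in CTRL medium, which held 2 mM glutamine. All cells were grown in the same DMEM with 10% serum, and the labels describe RNA from a cytoplasmic fraction, depleted of ribosomal RNA. The MAPKi experiment made up sequencing batch 2 and the Gln experiment sequencing batch 1, and replicate 1 of the Gln experiment belonged to experimental batch 1 whereas replicates 2 and 3 belonged to experimental batch 2. The 2 experiments shared no library.

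When unfolded proteins accumulate in the ER, 3 sensors in its membrane respond. ERN1 (IRE1) removes a short intron from the XBP1 mRNA so that an active transcription factor is made, EIF2AK3 (PERK) phosphorylates eIF2α and thereby slows translation while favouring that of ATF4, and ATF6 moves to the Golgi, where it is cut to release a transcription factor. The released factors act on promoters of chaperone genes and of genes for ER-associated degradation (ERAD). The eIF2α arm is also used by other kinases, among them the one that senses missing amino acids.

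The promoters of these genes are known for ER stress response elements, and the stretches holding them are shown because the genes that carry them did not move together. In the window from 250 bases before to 50 bases after the start site (RefSeq, GRCh38.p14), the ERSE was searched as CCAAT and CCACG separated by 9 bases, the ERSE-II as ATTGG and CCACG separated by 1 base, and the UPRE as TGACGTGG, all on both strands. Only exact matches were counted, here and below, so elements with a mismatched base were missed. The ERSE was found for 4 of the 10 genes (HSPA5, HSP90B1, CALR and XBP1) and for 0.0916% of 27305 genes with a promoter window, and the ERSE-II for 2 of the 10 (HERPUD1 and SDF2L1) and 0.0696% of all. The UPRE was found for 0 of the 10 genes and 0.927% of all. The 6 stretches below run 5′ to 3′ on the strand of the gene. Capitals mark the paired boxes of the ERSE or the whole ERSE-II, which read in reverse complement where CGTGG comes first.
HSPA5, minus strand, chr9:125241381-125241419: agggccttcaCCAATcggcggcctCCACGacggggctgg
HSP90B1, plus strand, chr12:103930206-103930349: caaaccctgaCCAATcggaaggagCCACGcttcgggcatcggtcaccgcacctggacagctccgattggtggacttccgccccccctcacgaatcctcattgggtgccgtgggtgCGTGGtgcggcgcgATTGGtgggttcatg
CALR, plus strand, chr19:12938374-12938412: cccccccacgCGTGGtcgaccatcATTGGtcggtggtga
XBP1, minus strand, chr22:28800593-28800631: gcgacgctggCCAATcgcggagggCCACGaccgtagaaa
HERPUD1, plus strand, chr16:56932015-56932045: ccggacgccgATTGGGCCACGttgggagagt
SDF2L1, plus strand, chr22:21642104-21642134: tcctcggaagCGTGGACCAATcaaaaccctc

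The element nearest to its start site was that of XBP1, at bases -52 to -34 counted from the first transcribed base, followed by HSPA5 at -66 to -48. XBP1 had 2 windows with different start sites, and its ERSE lay in 1 of them. HSP90B1 was the gene with 2 exact ERSE matches, at -194 to -176 and at -89 to -71 in the other orientation, and the match of CALR lay farthest out, at -225 to -207. The ERSE-II of HERPUD1 stood at -117 to -107 and that of SDF2L1 at -188 to -178. ATF6, DNAJB9, EIF2AK3 and ERN1 held no exact match of the 3 elements in this window. The CCAAT box alone was found for 9 of the 10 genes and 39.7% of all genes, and CCACG for 8 of the 10 and 42.1% of all, both counted also where they were part of an ERSE or ERSE-II.

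**Figure D1:**
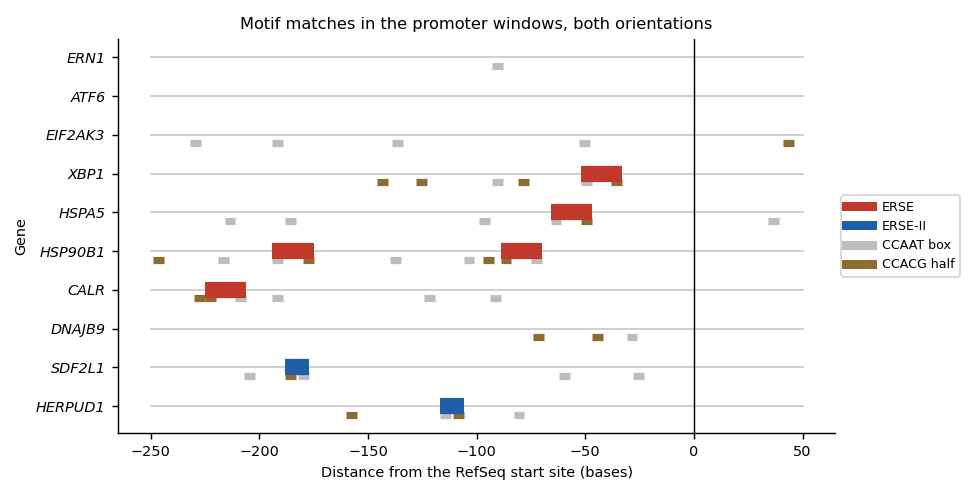
Positions of the motif matches of each gene along its promoter window, in bases from the RefSeq start site (x axis, 0 at the vertical line), with ERSE in red, ERSE-II in blue and single CCAAT and CCACG boxes in grey and brown below the line. XBP1, HSPA5, HSP90B1 and CALR carry an ERSE, HSP90B1 2 of them, and SDF2L1 and HERPUD1 an ERSE-II. XBP1 had 2 windows with different start sites, whose matches are drawn on 1 line.

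Between 31056296 and 40071368 reads were counted per library, and the 3 replicates limited the precision more than counting did. The MAPK pathway targets DUSP4, DUSP6, SPRY2, SPRY4, EGR1 and CCND1 were all downregulated in the MAPKi libraries, with log2 fold changes between -9.53 and -2.87. Melanocyte markers were present, their summed level being 1355 to 1432 CPM (TMM-scaled reads of a gene relative to the library total) in DMSO libraries, 8776 to 11155 in MAPKi libraries, 998 to 1246 in CTRL medium and 680 to 715 in Gln-depleted libraries, but TYR, MLANA and TYRP1 were under 2 CPM on average in both control groups. The MAPKi sum was mostly DCT, which averaged 7832 CPM with MAPKi and 201 CPM with DMSO. Of the 9 markers 6 were upregulated with MAPKi, beside 17.2% of all mRNAs tested. S100B was the 1 downregulated, from 174 to 39.8 CPM on average, beside 18.4% of all mRNAs. Without Gln 0 of the 8 tested were upregulated and 1 was downregulated, beside 3.14% and 2.41% of all mRNAs. This was MITF, which went from 301 to 57.5 CPM on average. Of 10 markers of other cell types 9 were under 1 CPM in every library and 3 (CD3E, KRT5 and MYH11) at 0 in all, and their sum, nearly all VWF, ran from 4.96 to 5.66 CPM with DMSO, 8.25 to 9.44 with MAPKi, 2.49 to 5.57 in CTRL medium and 3.77 to 6.36 without Gln. Whether these markers had a part in the results below was not tested.

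Levels of the 10 genes were compared per length, as RPKM over the Ensembl canonical transcript. In DMSO cells the lumenal chaperones led, CALR with 752 ± 27 RPKM (SD, n = 3), HSP90B1 with 656 ± 16 and HSPA5 with 188 ± 6.5, and the 3 sensors stood near the bottom, ATF6 with 14.4 ± 0.66, EIF2AK3 with 9.72 ± 0.39 and ERN1 last with 2.60 ± 0.19. SDF2L1 (57.4 ± 5.3), XBP1 (42.9 ± 2.2) and HERPUD1 (22.3 ± 1.9) lay between, and DNAJB9 (3.98 ± 0.54) was ninth. The order was the same in CTRL medium, where SDF2L1 (70.5 ± 12) and XBP1 (67.2 ± 19) did not differ beyond their spread. In MAPKi cells HERPUD1 followed HSPA5 with 48.3 ± 3.8 RPKM, and XBP1 (35.8 ± 2.7) and SDF2L1 (34.8 ± 0.55) did not differ beyond their spread. In Gln-depleted cells HSPA5 (442 ± 150), CALR (383 ± 59) and HSP90B1 (374.5 ± 71) overlapped, and ERN1, last in the other 3 groups, stood seventh with 27.3 ± 7.8 RPKM. The spread between replicates differed between the experiments, since the median coefficient of variation of the 10 genes was 4.84% in DMSO, 7.64% in MAPKi, 23.0% in CTRL medium and 23.4% in Gln-depleted libraries.

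**Figure D2:**
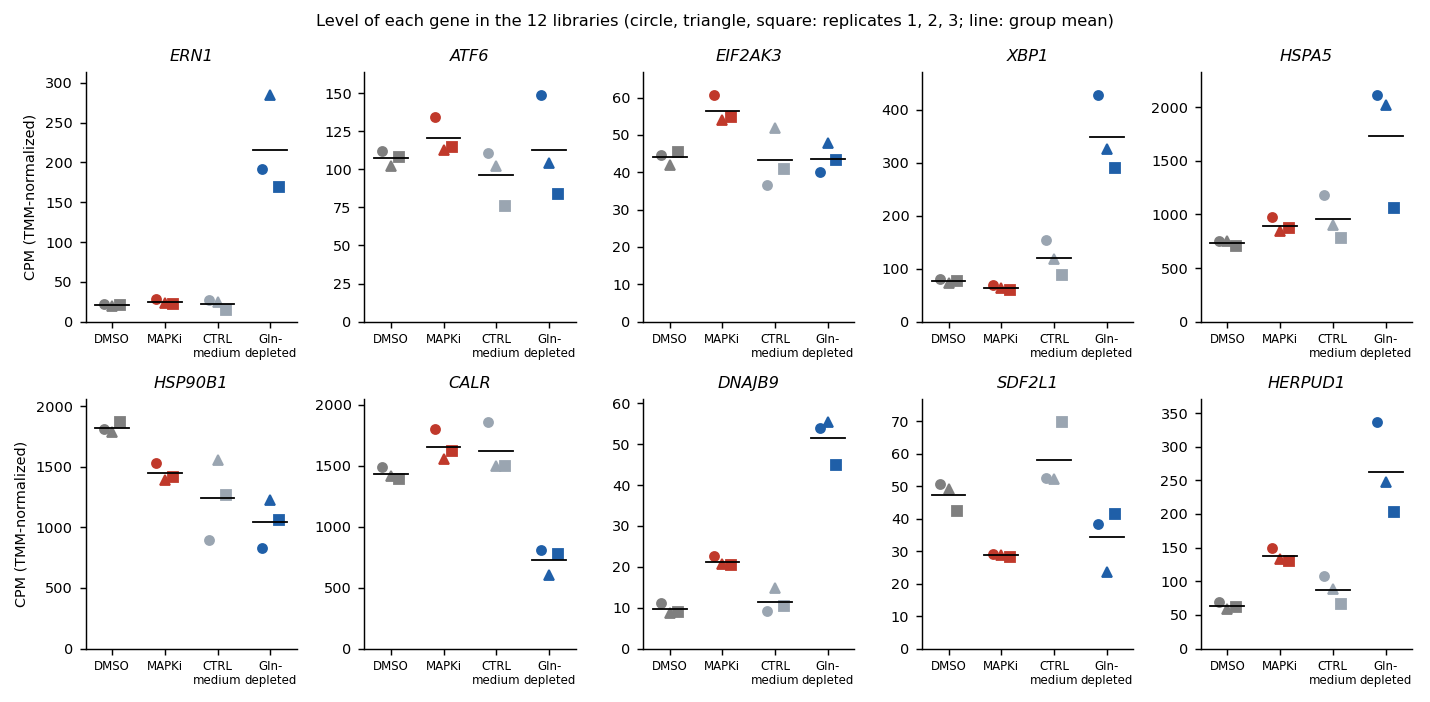
Level of each of the 10 genes (y axis, CPM scaled by TMM within each experiment, starting at 0) in the 12 libraries, by group, with circles, triangles and squares for replicates 1, 2 and 3 and a line at the group mean. MAPKi and DMSO points do not overlap for any gene, and ERN1, XBP1, DNAJB9 and HERPUD1 are higher in all Gln-depleted libraries than in all CTRL medium libraries.

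The first comparison asks how BRAF and MEK inhibition changed the mRNAs of the response. Of the 10 genes 2 were upregulated (DNAJB9 and HERPUD1) and 1 downregulated (SDF2L1), beside 17.2% of the 12593 mRNAs tested that were upregulated and 18.4% downregulated, 35.5% in all. A gene was called up- or downregulated where its fold change exceeded 1.5 with an adjusted p of at most 0.05 (edgeR's quasi-likelihood fit, Benjamini-Hochberg over all mRNAs tested). Tested against no change, 6 genes were higher and 3 lower, beside 39.3% and 38.8% of all mRNAs (78.1% in all). The MAPKi and DMSO libraries of the 10 genes did not overlap, with 7 genes higher and 3 lower, beside 40.8% and 40.2% of all mRNAs (81.0% in all). The median log2 fold change was 0.23 over the 10 genes and 0.01 over all mRNAs. The share of the 10 genes up- or downregulated was thus near that of all mRNAs. In bulk RNA, a change in the amount per cell and a change in the cells that make up the sample cannot be told apart. Nothing in the labels says that the MAPKi and DMSO replicates were separate cultures, and the paper states only that this experiment was done in triplicate. Their p-values thus measure the spread between these libraries, which may be technical. In the Gln experiment the labels put replicate 1 in another experimental batch than replicates 2 and 3. They do not say whether replicates 2 and 3 were separate cultures.

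The sensors changed little with MAPKi. ERN1 (chromosome 17, 64039080 to 64130819, minus strand, GRCh38 as for all genes here) stood at 27.8, 22.9 and 22.6 CPM in MAPKi replicates 1 to 3 and at 22.1, 19.1 and 20.4 CPM in DMSO replicates, a log2 fold change of 0.25 ± 0.09 (SE) with an adjusted p of 0.0303 against no change. EIF2AK3 (chromosome 2, 88556741 to 88691518, minus strand) had 60.8, 54.0 and 54.8 CPM with MAPKi and 44.7, 42.1 and 45.5 CPM with DMSO, a rise of 0.36 ± 0.06 on the log2 scale (adjusted p = 0.000286). ATF6 (chromosome 1, 161766298 to 161977574, plus strand) gave 134, 113 and 114 CPM against 112, 102 and 108 CPM, and its log2 fold change of 0.17 ± 0.07 did not pass the test against no change (adjusted p = 0.0568). MAPKi replicate 1 was the highest of the 6 libraries for each sensor, and none of the 3 passed the 1.5-fold threshold (adjusted p = 1).

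XBP1 (chromosome 22, 28794555 to 28800597, minus strand), the transcription factor made after splicing by ERN1, was slightly lower with MAPKi. It stood at 69.1, 64.0 and 59.3 CPM in MAPKi libraries and at 80.8, 72.9 and 77.0 CPM in DMSO libraries, a log2 fold change of -0.26 ± 0.06 (adjusted p = 0.0038 against no change). A 26-base gap for the intron removed by ERN1 is annotated at chr22:28796128-28796153 on the minus strand, inside an exon in 4 transcripts and spliced out in 1. Its ends follow the annotation (GENCODE v44) and were not checked against the cut sites of ERN1:
XBP1 intron: gcagcactcagactacgtgcacctct
Reads on this gene were counted whether or not these bases were present, so the counts give total XBP1 mRNA and not the share that was spliced.

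The lumenal chaperones went different ways with MAPKi, all by less than 1.5-fold. HSPA5 (chromosome 9, 125234853 to 125241382, minus strand), the ATP-dependent chaperone BiP that binds the sensors, had 972, 841 and 872 CPM in MAPKi libraries against 748, 753 and 707 CPM, a rise of 0.28 ± 0.06 (log2, adjusted p = 0.0019). HSP90B1 (chromosome 12, 103930107 to 103953931, plus strand), the ER member of the HSP90 family, had 1536, 1394 and 1414 CPM against 1811, 1791 and 1874 CPM, a log2 fold change of -0.33 ± 0.05 (adjusted p = 0.000151). CALR (chromosome 19, 12938578 to 12944489, plus strand), which folds glycoproteins and holds calcium, had 1797, 1552 and 1617 CPM against 1487, 1411 and 1391 CPM, a rise of 0.21 ± 0.06 (adjusted p = 0.0087). HSP90B1 and CALR share 7.95% and 9.64% of their exon bases with genes on the other strand or with a microRNA, and ERN1 and EIF2AK3 4.62% and 3.78% with long noncoding RNAs on the other strand, and reads from such overlaps may have been lost or assigned to either gene.

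The 3 genes past the threshold were DNAJB9, HERPUD1 and SDF2L1. DNAJB9 (chromosome 7, 108569867 to 108574850, plus strand), a co-chaperone of HSPA5 that also restrains ERN1, stood at 22.6, 20.6 and 20.4 CPM with MAPKi and at 11.1, 8.68 and 9.02 CPM with DMSO. All MAPKi libraries lay well above all DMSO libraries, a 2.21-fold rise (log2 1.15 ± 0.10, adjusted p = 0.000153 against 1.5-fold). HERPUD1 (chromosome 16, 56932142 to 56944864, plus strand), a membrane protein of the ERAD machinery, stood at 150, 133 and 130 CPM against 69.5, 59.1 and 62.0 CPM, a 2.17-fold rise (log2 1.12 ± 0.07, adjusted p = 3.31e-05). The same-numbered ratios of both genes were close, from 1.03 to 1.25 for DNAJB9 and from 1.07 to 1.17 for HERPUD1 on the log2 scale. SDF2L1 (chromosome 22, 21642302 to 21644299, plus strand), a partner of HSPA5 complexes, went the other way, with 29.1, 28.8 and 28.2 CPM against 50.6, 49.0 and 42.3 CPM. Its 1.65-fold fall (log2 -0.72 ± 0.07) lay close to the threshold, with an adjusted p of 0.0303. The call was lost without MAPKi replicate 3 (adjusted p = 0.056), DMSO replicate 1 (0.0993) or DMSO replicate 2 (0.081), with DESeq2 (0.238) and in a fit of all 12 libraries (0.289), while the log2 fold change stayed between -0.80 and -0.68 in every setting tried.

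The second comparison asks how 24 h without glutamine changed the same mRNAs. Here 4 of the 10 genes were upregulated (ERN1, DNAJB9, HERPUD1 and XBP1) and 1 downregulated (CALR), beside 3.14% and 2.41% of the 12512 mRNAs tested (5.55% in all). Against no change 4 were higher and 1 lower, beside 8.70% and 9.76% of all mRNAs (18.5% in all). The groups did not overlap for 6 of the 10 genes, 4 higher and 2 lower, beside 18.3% and 22.3% of all mRNAs (40.6% in all). The median log2 fold change was 0.54 over the 10 genes and -0.03 over all mRNAs. With library totals in place of TMM the median over all mRNAs was -0.16, and 44.5% instead of 56.5% of the called mRNAs were upregulated. The 5 calls of the 10 genes were the same with that scaling, but the call of CALR was lost with DESeq2's size factors (adjusted p = 0.0656) and with TMM factors from all genes (0.0722). Replicate numbers paired the libraries of this experiment (same-numbered libraries deviated together, with correlations of 0.386 or higher), so values with the replicate number as a block are given where they change a call.

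Among the sensors ERN1 rose 9.78-fold, the largest change of the 10 genes. It stood at 192, 285 and 169 CPM in Gln-depleted replicates 1 to 3 and at 26.9, 24.3 and 14.9 CPM in CTRL medium replicates, so that the lowest Gln-depleted library was several-fold above the highest CTRL medium library. The log2 fold change was 3.29 ± 0.31 (SE, adjusted p = 0.00298 against 1.5-fold). The other sensors overlapped between the groups. ATF6 had 149, 104 and 83.7 CPM against 110, 102 and 75.8 CPM, a log2 difference of 0.22 with a 95% interval from -0.37 to 0.82. EIF2AK3 had 39.9, 47.8 and 43.3 CPM against 36.7, 52.0 and 40.9 CPM, a log2 difference of 0.02 with an interval from -0.44 to 0.47. The interval of ATF6 thus reached past a 1.5-fold rise, and that of EIF2AK3 did not reach 1.5-fold in either direction.

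XBP1 was upregulated as well. It stood at 429, 326 and 290 CPM without Gln and at 155, 119 and 87.5 CPM in CTRL medium, a 2.89-fold rise (log2 1.53 ± 0.26, adjusted p = 0.0346). Replicate 1 was the highest and replicate 3 the lowest in both groups, and the same-numbered ratios ran from 1.45 to 1.73 (log2). With fewer libraries the call was lost without Gln-depleted replicate 1 (adjusted p = 0.0584), 2 (0.0991) or 3 (0.0557) and without CTRL medium replicate 2 (0.111) or 3 (0.107), whereas with the block the adjusted p was 0.000524.

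The chaperones did not rise as a group without Gln. HSPA5 had 2119, 2025 and 1056 CPM in Gln-depleted libraries and 1179, 899 and 782 CPM in CTRL medium libraries. Replicate 3 without Gln lay below replicate 1 of CTRL medium, so the groups overlapped, although each Gln-depleted library was above its same-numbered control. The log2 fold change of 0.86 ± 0.29 did not pass either test (adjusted p = 0.0767 against no change and 0.36 against 1.5-fold), but it differed from no change with the block (0.82 ± 0.15, adjusted p = 0.00358) and in experimental batch 2 alone (adjusted p = 0.0466). HSP90B1 had 833, 1228 and 1064 CPM against 898, 1556 and 1270 CPM, a log2 difference of -0.25 with an interval from -0.82 to 0.32. CALR was lower in every Gln-depleted library, with 805, 600 and 778 CPM against 1861, 1499 and 1498 CPM. Its 2.22-fold fall (log2 -1.15 ± 0.19) passed against no change (adjusted p = 0.0084) and narrowly against 1.5-fold (adjusted p = 0.0473). That narrow call was lost with DESeq2 (0.296), in the fit of all genes (0.0534) and without Gln-depleted replicate 2 (0.189) or 3 (0.105) or CTRL medium replicate 1 (0.131), 2 (0.112) or 3 (0.103), and it was firmer with the block (0.00314).

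The co-chaperones differed from each other. DNAJB9 stood at 53.9, 55.6 and 45.0 CPM without Gln and at 9.07, 14.9 and 10.4 CPM in CTRL medium, a 4.50-fold rise (log2 2.17 ± 0.24, adjusted p = 0.00537). The lowest Gln-depleted library lay far above the highest control. SDF2L1 had 38.3, 23.6 and 41.5 CPM against 52.5, 52.1 and 69.9 CPM, lower in every Gln-depleted library. Its log2 fold change of -0.76 ± 0.26 did not pass (adjusted p = 0.076 against no change), but did so against no change with the block (-0.78 ± 0.15, adjusted p = 0.00436). HERPUD1 stood at 337, 247 and 203 CPM against 108, 88.0 and 65.6 CPM, a 3.01-fold rise (log2 1.59 ± 0.27, adjusted p = 0.0315). This call was lost without Gln-depleted replicate 1 (0.0507) or 2 (0.0944) or CTRL medium replicate 2 (0.102) or 3 (0.107), and was firmer with the block (0.000357). ERN1 and DNAJB9 were upregulated whichever library was left out.

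The directions were the same in both experimental batches for the genes that rose. In batch 1, with 1 library per group and no test, the log2 ratios were 2.84 for ERN1, 1.47 for XBP1, 2.57 for DNAJB9 and 1.64 for HERPUD1. In batch 2, with 2 libraries per group, they were 3.57 ± 0.32, 1.61 ± 0.18, 2.03 ± 0.21 and 1.59 ± 0.18, all upregulated (adjusted p between 0.00327 and 0.00908). CALR fell in both, by 1.21 in batch 1 and by 1.08 ± 0.17 in batch 2 (log2, adjusted p = 0.0394).

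**Figure D3:**
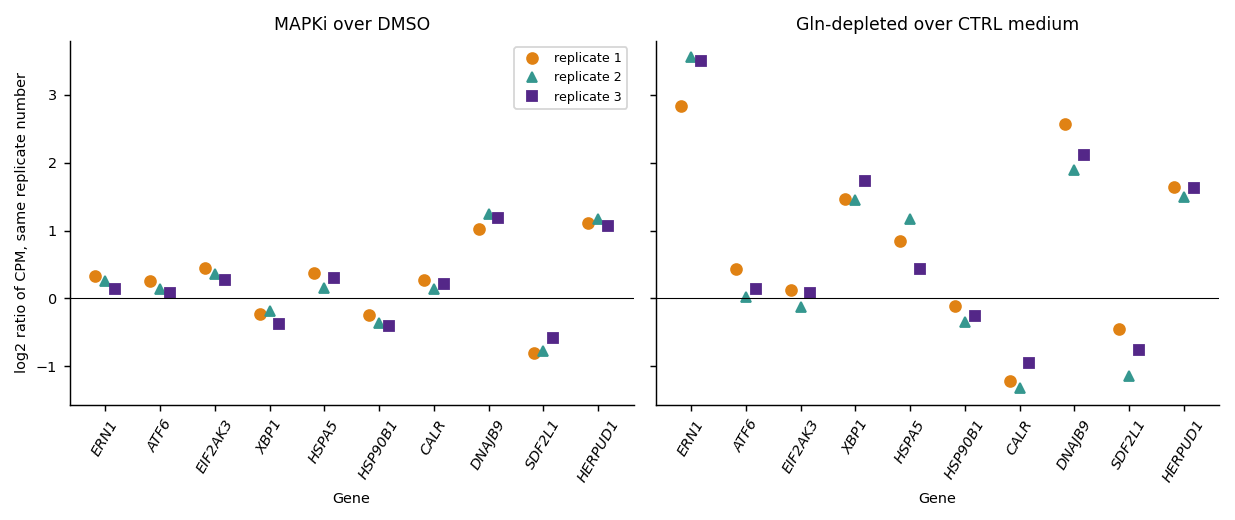
log2 ratio of CPM between treated and control libraries of the same replicate number (y axis) for the 10 genes, with orange circles, green triangles and purple squares for replicates 1, 2 and 3, MAPKi over DMSO on the left and Gln-depleted over CTRL medium on the right. Of the Gln ratios those of HSPA5 spread from 0.43 to 1.17, and those of ERN1, XBP1, DNAJB9 and HERPUD1 are all at 1.45 or above.

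The 2 effects were compared as a contrast over the 12 libraries, in which 40.5% of 12291 mRNAs differed. Of the 10 genes 4 differed. ERN1 (difference of MAPKi minus Gln depletion -3.01 ± 0.33 on the log2 scale, adjusted p = 2.87e-05), XBP1 (-1.78 ± 0.30, adjusted p = 0.000631) and DNAJB9 (-1.02 ± 0.24, adjusted p = 0.00486) responded more positively to Gln depletion. CALR responded more positively to MAPKi (1.38 ± 0.22, adjusted p = 0.000414). The difference was small beside its error for SDF2L1 (0.04 ± 0.29), ATF6 (-0.05 ± 0.30) and HSP90B1 (-0.07 ± 0.24). With the block 7 genes differed, HERPUD1 (adjusted p = 0.00234), EIF2AK3 (0.0199) and HSPA5 (0.0332) in addition. Of the 12291 mRNAs tested with the block, 3632 responded more positively to MAPKi and 3927 to Gln depletion. HSPA5 also differed without Gln-depleted replicate 3 (0.0195) and EIF2AK3 without CTRL medium replicate 1 (0.0442). Since each experiment was its own sequencing batch, a batch effect that acts differently on treated and control libraries cannot be told apart from a difference between the treatments.

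**Figure D4:**
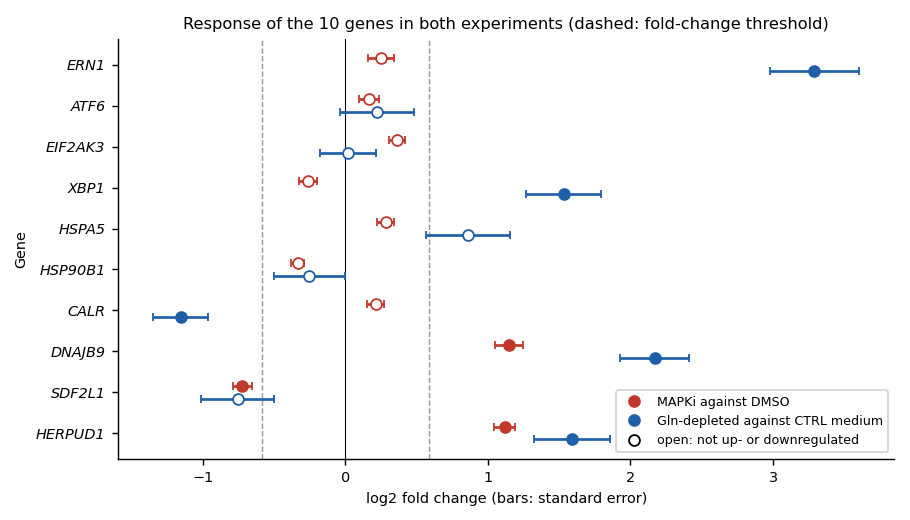
log2 fold change of the 10 genes (x axis, bars are SE) for MAPKi against DMSO in red and Gln-depleted against CTRL medium in blue, filled where a gene was up- or downregulated past the dashed 1.5-fold threshold. DNAJB9 and HERPUD1 are filled on the right in both colours, ERN1 and XBP1 in blue alone, SDF2L1 on the left in red and CALR in blue.

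Genes with the same element were not all called in the same direction, and whether the elements had a part in the responses was not tested. Of the 4 genes with an ERSE, XBP1 was upregulated and CALR downregulated without Gln, and HSPA5 and HSP90B1 were called in neither experiment. Tested against no change with MAPKi, XBP1 and HSP90B1 were lower and HSPA5 and CALR higher. Of the 2 with an ERSE-II, HERPUD1 rose in both experiments and SDF2L1 fell with MAPKi. DNAJB9 and ERN1, which had the highest log2 fold changes without Gln, held no exact match of the 3 elements in the window searched. Another 5 genes of the lists below held an ERSE or ERSE-II (CANX, CRELD2, ERO1B, PDIA6 and HYOU1). Of these ERO1B was upregulated with MAPKi, a call lost in the fit of all 12 libraries (adjusted p against 1.5-fold = 0.0644). Without Gln 0 were called in the fit without the block, and CRELD2 was downregulated with the block (0.0489).

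The rest of the pathway was described with 99 other genes in 5 lists, all in the table. With MAPKi 11 of the 96 tested were upregulated and 13 downregulated (11.5% and 13.5%), beside 17.2% and 18.4% of all mRNAs tested, with a median log2 fold change of 0.07. With Gln depletion 8 of the 94 tested were upregulated and 0 downregulated, beside 3.14% and 2.41% of all mRNAs tested, with a median of 0.08. With the replicate number as a block 9 were upregulated and 4 downregulated, beside 1024 and 1047 of the 12512 mRNAs tested. CANX, DERL3, HYOU1 and ATF6B, which have further copies in the table, have uncertain counts, as reads shared with a copy may have been left out. The upregulated count with MAPKi includes ATF6B, whose call rested on 461 reads in 1 MAPKi library beside 1 read in each of the other 5. It fell to 7 without MAPKi replicate 1, DMSO replicate 2 or DMSO replicate 3, and to 6 with DESeq2.

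Folding genes moved in both directions with MAPKi and were not called without Gln in the fit without the block. Of 26 other chaperones, co-chaperones and folding enzymes, 3 were upregulated and 2 downregulated with MAPKi (19.2%, beside 35.5% of all mRNAs tested), with a median log2 fold change of 0.05. DNAJC1 (1.90 ± 0.07) and DNAJC3 (0.87 ± 0.06), both J-domain partners of HSPA5, and the oxidase ERO1B (0.94 ± 0.12) rose, whereas the disulfide isomerases PDIA5 (-1.22 ± 0.08) and PDIA4 (-0.92 ± 0.05) fell (log2, adjusted p between 6.54e-08 and 0.00545). In the fit of all 12 libraries the calls of DNAJC3 (adjusted p = 0.136), ERO1B (0.0644) and PDIA4 (0.0637) were lost. Without Gln 0 of 26 were called by edgeR and 0 by DESeq2, and 3 had an unadjusted p under 0.05 against 1.5-fold, all lower. The median was -0.17. MANF (-0.83), CRELD2 (-0.86) and ERO1A (-0.88), named after their values were seen, were lower when tested against no change (adjusted p = 0.0172, 0.0291 and 0.0437). They were the 3 of 26 that were lower, beside 9.76% of all mRNAs. With the block these 3 genes were downregulated (adjusted p against 1.5-fold = 0.046, 0.0489 and 0.0489), beside 1047 of the 12512 mRNAs tested.

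Of 22 ERAD genes, 3 of 21 tested were upregulated with MAPKi, the lectin OS9 (log2 1.36 ± 0.09), DERL2 (0.75 ± 0.09) and UBXN4 (0.71 ± 0.06), and 2 downregulated, EDEM1 (-0.73 ± 0.07) and UFD1 (-0.69 ± 0.06). This was 23.8% of those tested, beside 35.5% of all mRNAs. The calls other than that of OS9 were close to the threshold (adjusted p between 0.0193 and 0.0451) and were lost with DESeq2 and in the fit of all 12 libraries. They were also lost with fewer libraries, that of DERL2 without MAPKi replicate 1 (0.233), DMSO replicate 2 (0.102) or 3 (0.149), and that of UFD1 without the same 3 (0.105, 0.151 and 0.065). That of UBXN4 was lost without MAPKi replicate 1 (0.164) or DMSO replicate 1 (0.0561), 2 (0.114) or 3 (0.0502), and that of EDEM1 without MAPKi replicate 2 (0.0543) or DMSO replicate 1 (0.0588). Without Gln 0 of 20 were called by edgeR or DESeq2, and 0 had an unadjusted p under 0.05 against 1.5-fold. DERL2 (0.74) and SELENOS (0.70) were higher when tested against no change (adjusted p = 0.0301 and 0.03), 2 of 20 beside 8.70% of all mRNAs. With the block VCP, the ATPase that extracts ERAD substrates, was downregulated (-1.06, adjusted p = 0.022), beside 1047 of the 12512 mRNAs tested. These 3 genes were named after their values were seen. Of 24 genes for translocation, signal peptidase and the COPII coat, 2 were upregulated with MAPKi, SEC11C (0.79 ± 0.07) and SAR1B (0.68 ± 0.05). SEC11C missed the threshold with DESeq2 (adjusted p = 0.0608), and SAR1B with DESeq2 (0.389), with library totals (0.0611) and without MAPKi replicate 1 (0.117), 2 (0.073) or 3 (0.0599) or DMSO replicate 2 (0.104) or 3 (0.154). The 4 downregulated were SEC24D (-1.07 ± 0.07), SEC13 (-0.85 ± 0.05), SSR3 (-0.77 ± 0.06) and, named after its value was seen, SPCS1 (-0.72 ± 0.07). In both directions 25% of the 24 were called, beside 35.5% of all mRNAs. SPCS1 missed the threshold with DESeq2 (adjusted p = 0.225) and without MAPKi replicate 2 (0.0912) or 3 (0.116) or DMSO replicate 1 (0.135) or 3 (0.0519). In the fit of all 12 libraries only the call of SEC24D was kept among these 6. Without Gln 0 of these 24 were called by edgeR or DESeq2 and 0 had an unadjusted p under 0.05 against 1.5-fold, and their median was 0.11.

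Genes downstream of eIF2α kinases were mostly upregulated without Gln and were called in both directions with MAPKi. Without Gln 8 of 10 were upregulated (80%, beside 3.14% of all mRNAs tested), with a median log2 fold change of 2.63, higher than those of the other 4 lists. NUPR1 stood at 71.6, 115 and 138 CPM against 4.20, 9.96 and 2.82 CPM (log2 4.26 ± 0.52, adjusted p = 0.00544). CHAC1, which degrades glutathione, had 118, 94.2 and 97.1 CPM against 14.3, 11.3 and 6.15 CPM (3.28 ± 0.33, adjusted p = 0.00298). The pseudokinase TRIB3 had 608, 584 and 556 CPM against 69.6, 75.9 and 53.1 CPM (3.14 ± 0.20, adjusted p = 0.00143). With MAPKi 2 of the 10 were upregulated, ATF3 (2.36 ± 0.13) and NUPR1 (1.94 ± 0.21), and 4 downregulated, CHAC1 (-2.93 ± 0.19), TRIB3 (-1.13 ± 0.06), EIF2S1 (-0.75 ± 0.05) and, named after its value was seen, ATF4 (-0.74 ± 0.07). This was 60% of the list, beside 35.5% of all mRNAs. The call of ATF4 was lost with DESeq2 (adjusted p = 0.122), in the fit of all 12 libraries (0.219) and without MAPKi replicate 1 (0.0535) or DMSO replicate 1 (0.058) or 3 (0.104), and that of EIF2S1 in the fit of all 12 libraries (0.153). CHAC1 and TRIB3, and ATF4 by edgeR though not by DESeq2, were thus upregulated without Gln and downregulated with MAPKi. The mRNA of EIF2AK3 rose slightly with MAPKi and overlapped between the groups without Gln. Counts do not measure kinase activity, and which kinase acted was not tested.

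Of 17 other ER membrane transcription factors, their proteases and partners of ERN1, 15 were tested with MAPKi, where the kinase MAP3K5 fell (-3.27 ± 0.10, adjusted p = 1.68e-08) and ATF6B was called on the 1 library given above. This was 13.3% of those tested, beside 35.5% of all mRNAs. Without Gln 0 of 14 were called by edgeR or DESeq2, 0 had an unadjusted p under 0.05 against 1.5-fold, and the median was -0.01. Against no change MAP3K5 was lower (-0.85, adjusted p = 0.0404) and NFYA higher (0.76, adjusted p = 0.0419), 1 of 14 each, beside 9.76% and 8.70% of all mRNAs. With the block NFYB, like NFYA a subunit of the factor that binds CCAAT, was upregulated (1.03, adjusted p = 0.0149), beside 1024 of the 12512 mRNAs tested. NFYA and NFYB were named after their values were seen.

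**Figure D5:**
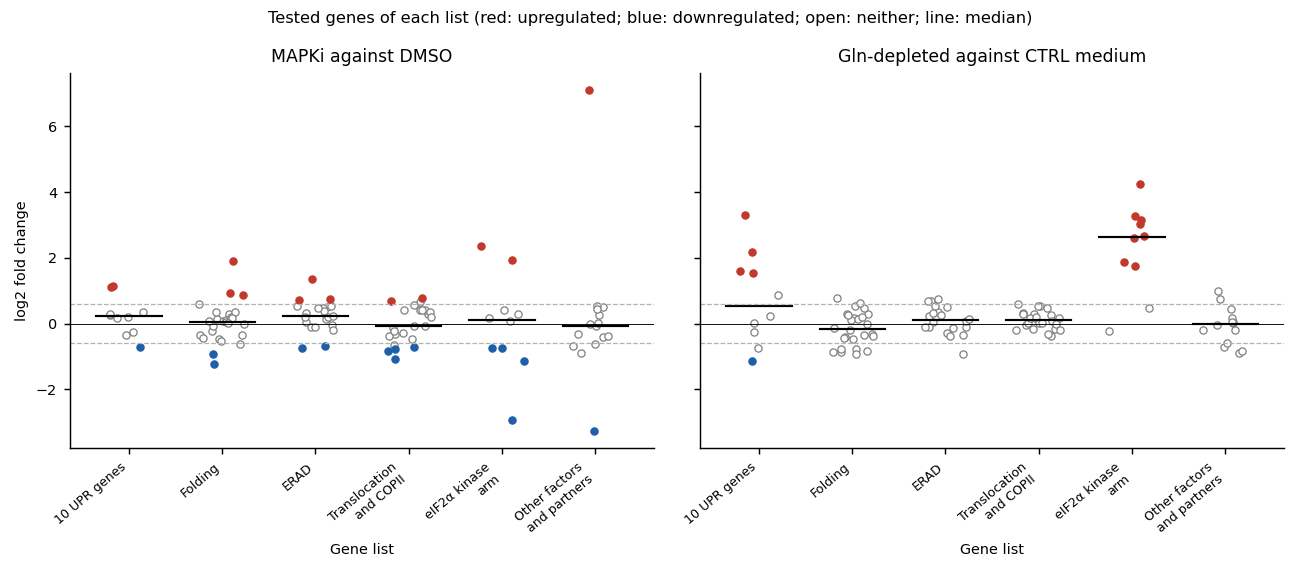
log2 fold change (y axis) of the tested genes of each list (x axis), with MAPKi against DMSO on the left and Gln-depleted against CTRL medium on the right, red for upregulated, blue for downregulated and open for neither, and a line at the median. On the right, called points other than those of the 10 genes belong to the eIF2α kinase arm, whose median is 2.63, and the point at 7.10 on the left is ATF6B.

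Across the 12 libraries the level of HSPA5, as log2 CPM centred within each experiment, was followed most closely by those of ITPRIP (Pearson's r = 0.979), GSPT2 (0.974), ZNF671 (0.962), TRIM25 (0.960) and GBE1 (0.959), out of 10459 mRNAs whose mean normalized count reached 100 in both experiments. Among the 10 genes themselves, HERPUD1 (0.856), ERN1 (0.809), XBP1 (0.796), ATF6 (0.774) and DNAJB9 (0.755) followed HSPA5, whereas SDF2L1 (-0.779), CALR (-0.612) and HSP90B1 (-0.548) ran against it and EIF2AK3 (0.148) was near 0. These values describe 12 libraries that share 2 treatments and their batches, and their signs need not hold within each experiment. With MAPKi, HSPA5 and CALR were both higher (log2 0.28 and 0.21), while XBP1 was lower (-0.26).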

How the data were processed

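The data are RNA-seq libraries of A375 cells, 3 per group. The authors deposited raw read counts per gene: per the labels and the study's methods, reads were trimmed with fastp 0.20.1, aligned to GRCh38.p13 with HISAT2 2.2.1 and counted on exons with htseq-count (HTSeq 0.13.5). Whether counting used strand is not given in the sources used here. The labels name cytoplasmic RNA, the study's RNA-seq methods total RNA.

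Groups came from the sample labels. Symbols were matched to RefSeq (36524 by symbol, 513 by an older symbol, 4858 further copies, 2764 unmatched), and gene positions, exons and lengths to GENCODE v44. Differential expression was tested with edgeR 4.0.16 in R 4.3.3 (quasi-likelihood fit, TMM factors from the genes tested, no covariate beside treatment). Protein-coding genes entered where their mean normalized count reached 10. Up- and downregulated genes were called by glmTreat against a 1.5-fold change with adjusted p-values (Benjamini-Hochberg, all genes tested) up to 0.05, and glmQLFTest gave tests against no change. The paper used DESeq2, run here as an alternative (1.42.0). CPM and RPKM values were scaled by TMM within each experiment, so levels set across experiments were normalized separately. Intervals are 95% intervals from the SE and the t quantile of the fit. The procedure was tested on simulated data.

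Same-numbered libraries were taken as paired in the Gln experiment, where their deviations from the group means correlated with 0.386 or higher across genes in all 3 pairs. No 2 replicates agreed within sampling noise.

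The 10 genes, the lists and the tests were chosen with earlier results of these data known. Named from each list were up to 3 upregulated and 3 downregulated genes with the largest changes among those averaging 100 or more normalized counts, and the 5 genes most like HSPA5. Python 3.11.15 with pandas 2.3.3 and matplotlib 3.10.9 was used for sequences and figures.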

Additional observations from a re-analysis of the deposited data

How the results depend on the processing

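Settings were changed one at a time, and none reversed the direction of a called value. Values near 0 that passed no test did change sign: with Gln depletion that of ATF6 (0.22) became -0.03 without Gln-depleted replicate 1, and that of EIF2AK3 (0.02) lay between -0.11 and -0.02 with library totals alone, without Gln-depleted replicate 2 or without CTRL medium replicate 1 or 3. The difference between the effects changed sign in 4 settings for ATF6 (from -0.05 to at most 0.24), 3 for HSP90B1 (from -0.07 to at most 0.09) and 3 for SDF2L1 (from 0.04 to -0.18 at the lowest). With MAPKi, DNAJB9 and HERPUD1 were upregulated in every setting with the 1.5-fold threshold. Without a threshold 6 of the 10 genes were upregulated and 3 downregulated, and at a log2 threshold of 1 there were 0 and 0. The 1 downregulated gene, SDF2L1, became 0 with DESeq2 and when all 12 libraries were fitted, and 0 to 1 when a library was left out. The 11 other genes of the pathway upregulated became 6 with DESeq2, 41 without a threshold, 4 at a threshold of 1, 5 with all 12 libraries fitted and 7 to 10 when a library was left out, and the 13 downregulated became 33, 3 and 5 without a threshold, at 1 and in the fit of all 12. With Gln depletion the 4 upregulated genes became 2 (ERN1 and DNAJB9) at a threshold of 1 and 2 to 4 when a library was left out. The 1 downregulated gene, CALR, became 0 with DESeq2's size factors, TMM factors from all genes (chosen after seeing the data), DESeq2, a fit of all genes or a threshold of 1, and 0 to 1 when a library was left out. The 0 other genes of the pathway downregulated became 4 without a threshold, 4 with the replicate block, 1 with a term for the experimental batch and 1 in batch 2 alone. The difference between the effects held for 4 genes, and for 4 to 5 when a library was left out. It held for 7 with the replicate block, where 3632 and 3927 of 12291 mRNAs differed. The causes of these changes were not tested beyond the fewer libraries or the moved threshold themselves.

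Over all mRNAs, 393 were upregulated and 302 downregulated without Gln, beside 1024 and 1047 with the replicate block, 925 and 955 with the batch term, 726 and 643 in batch 2 alone, 809 and 895 with all 12 libraries fitted, 177 and 67 at a threshold of 1 and 1088 and 1221 without one. Without one library the upregulated ran from 162 (CTRL medium replicate 3) to 433 (Gln-depleted replicate 1) and the downregulated from 70 to 430. With MAPKi, 2162 and 2314 became 1451 and 1622 with all 12 libraries fitted, 1040 and 1256 at a threshold of 1 and 4948 and 4890 without one. The MAPKi libraries shared only a replicate number, with correlations of 0.0562 to 0.0687, each library correlating best with its own number, and the block gave 2241 and 2366 calls and the same calls for the 10 genes.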
